A study of Drosophila melanogaster with 2 samples.

Results

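The wide shared peaks are 236 regions of H3K27ac in the pupal wing of Drosophila melanogaster that were called 800 bp or wider in both biological replicates. They were chosen by their widths. A replicate 1 peak on the 6 chromosome arms X, 2L, 2R, 3L, 3R and 4 was taken when it was at least 800 bp wide and overlapped, by 1 bp or more, a replicate 2 peak that was also at least 800 bp wide. They are 236 of 14425 replicate 1 peaks on these arms (1.64%), and each has its own replicate 2 partner among 26358 peaks. The wings came from males of the transgenic line D2 at 67% of pupal development, and both replicates were 35 to 45 lightly crosslinked wings processed by CUT&RUN. There was 1 group, with no other genotype, stage or antibody, so the regions are compared with the other shared peaks and not with a control.

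H3K27ac, the acetylation of lysine 27 on histone H3, marks active promoters and enhancers. Most marked sites are short, a few nucleosomes around a nucleosome-free centre, and broad acetylated stretches are known in many tissues from strongly transcribed genes and from groups of neighbouring enhancers. CUT&RUN releases the marked nucleosomes with a nuclease tethered to the antibody, and the width of a called peak is the stretch over which the released fragments stay above the threshold of the caller. At the time sampled, the wing epithelium has stopped dividing, bears its hairs and is secreting cuticle.

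The lists differed in depth. Solved from the fold and p of the peaks, the caller's background over the genome was 13.8 fragments for replicate 1 and 27.1 for replicate 2. The median peak was 278 and 252 bp wide. Replicate 1 held 764 arm peaks of 800 bp or more (5.3%) and replicate 2 held 666 (2.53%), so the shallower list had more wide peaks. The 236 regions make up 30.9% of the wide peaks of replicate 1 and 35.4% of those of replicate 2. Of the other 528 wide peaks of replicate 1, 518 overlapped narrower replicate 2 peaks, 262 of them at least 2 separate ones, and 10 met no peak. Of the other 430 wide peaks of replicate 2, 325 overlapped narrower replicate 1 peaks and 105 met none. By the rule itself the wide shared peaks are the better covered ones, with a median of 92.4% of the replicate 1 peak covered by replicate 2 peaks, against 59.4% of the other wide peaks of that list.

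Widths among the 236 regions had a median of 1014 bp in replicate 1 (800 to 2785 bp) and 963 bp in replicate 2 (801 to 2858 bp). The smaller width of the replicate pair was at least 1000 bp in 70 regions, at least 1200 bp in 25 and at least 1500 bp in 5. The peak was wider in replicate 1 in 134 of 236 regions (56.8%), and the Spearman correlation of the widths was 0.29 over the 236 regions, whose lower end the choice had cut off. At least 50% of both peaks overlapped in 224 regions. Summits, the highest points of the peaks, lay a median of 158.5 bp apart, within 100 bp in 89 regions and more than 500 bp apart in 42. The region with the least overlap lay in the ribosomal protein gene RpS7, where peaks of 1037 and 1244 bp shared 248 bp.

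**Figure D1:**
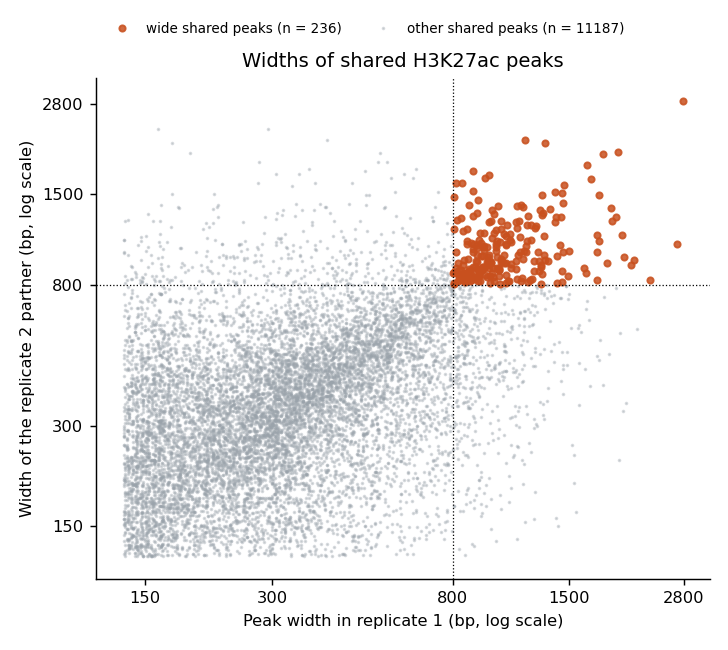
Width of each shared peak in replicate 1 (horizontal axis, bp, log scale) against the width of the replicate 2 peak that overlaps it most (vertical axis, bp, log scale), with the 236 wide shared peaks in orange and 11187 other shared peaks in grey. Dotted lines mark 800 bp, and the point at the top right is the Maf1 region of 2785 and 2858 bp.

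The values at the threshold describe how the choice divides a continuous range. Just inside lay a region on 3L at 15533906 to 15534705, 800 and 867 bp wide, whose nearest gene end is that of CrebA, a transcription factor of the secretory pathway, 855 bp from the summit. Also just inside were a region in sick of 1288 and 801 bp, one at CG3107 of 1033 and 802 bp, and one in sm of 806 and 803 bp. Just outside lay overlapping peaks at CG13154 and Nup54 of 799 and 955 bp, in Bicra of 799 and 888 bp, in the splicing factor gene mbl of 798 and 873 bp, and in l(3)mbt of 1333 and 798 bp. The fold enrichments of these 8 regions ran from 2.62 to 4.68 in replicate 1 and from 2.17 to 3.11 in replicate 2, with no gap at the threshold.

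Ranked by the smaller width of the replicate pair, the widest region covered the lower-coordinate end of Maf1, the gene of a repressor of RNA polymerase III, on 2R at 1512802 to 1515586 (dm6). It was 2785 bp wide in replicate 1 and 2858 bp in replicate 2, with 84 and 240 fragments at summits 5 bp apart and a fold enrichment of 3.69 and 4.50. The fold is the authors' ratio of the fragments at the summit to the background that the caller estimated. A further wide region lay inside the same gene at 1521391 to 1522711, 1321 and 2129 bp wide, with 75 and 146 fragments and a fold of 5.09 and 5.23. The pair made Maf1 the gene with the largest summed wide width among the 8 genes that carried more than 1 of these regions.

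By the same ranking the next region, on 2R at 5107723 to 5109684, was 1962 and 2008 bp wide and touched no protein-coding gene, with its summit 8063 bp from the end of gus. The third spanned the shared neighbourhood of CG6701 and Ctf4, a replisome component, at 1804 and 1978 bp, and the fourth the end of CG14866 at 1694 and 1668 bp. Interior regions among the 15 widest by this measure lay in Marf1 (1657 and 1838 bp), in the axonal protein gene fax (1769 and 1492 bp) and in lola, the gene of a BTB zinc finger family with many isoforms (1454 and 1411 bp). Others lay in CG43366 (1885 and 1359 bp) and in the centriole gene spd-2 (1296 and 1493 bp). The largest on X, at 10852670 to 10854117, reached an end of feo, a microtubule-bundling protein of cell division and one of CG2202, at 1448 and 1513 bp. The remaining ones were at CG5886 (1461 and 1592 bp), at Obp73a inside Cpr73D (1353 and 1356 bp), at CG8008 and CG8046 (1306 and 1316 bp) and near the tip of arm 4. Of the 15, 6 reached no gene end while lying inside a gene, and 2 touched no gene.

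Height was not used in the choice but comes from the same fragments as the width, so it is given as a description. The wide shared peaks had a median fold of 3.21 and 2.73, and the other shared peaks one of 2.49 and 2.26 (replicate 1 and replicate 2). Their median rank by fold within the whole list was at the percentile 88.8 and 90.2, and the lowest stood at 19.9 and 27.5, so width did not always go with height. Summit fragments had a median of 75 and 103.5 at wide shared peaks and of 53 and 84 at the other shared peaks. The caller's background at these summits was also somewhat higher, with a median of 21.5 and 37.3 fragments against 19.8 and 36.1. Within the 236 regions the Spearman correlation of width with fold was 0.19 in replicate 1 and 0.07 in replicate 2, and over all arm peaks it was 0.50 and 0.51. The choice on width cuts off the range of the 236, which by itself lowers their value. Between the replicates the fold correlated at 0.53, and it was higher in replicate 1 in 185 regions (78.4%).

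**Figure D2:**
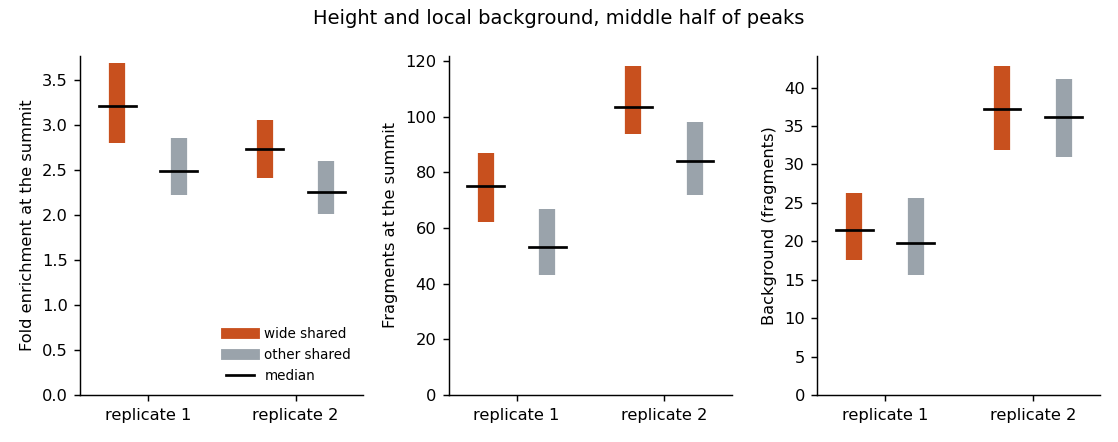
Fold enrichment at the summit, fragments at the summit and background estimated by the caller (fragments) for wide shared peaks (orange) and other shared peaks (grey) in each replicate. Bars span the 25th to 75th percentile of peaks and black lines mark medians, which for the fold were 3.21 and 2.73 in wide shared peaks and 2.49 and 2.26 in the others.

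In 10 regions the fold was at least 4 in both replicates, and they are ranked here by the smaller fold. The highest lay on 4 at 1318277 to 1319673, with 127 and 188 fragments and a fold of 8.24 and 6.72, and the next on 2R at 25285276 to 25286190, with 107 and 184 fragments and a fold of 7.28 and 6.58. Both lie beyond the last annotated protein-coding gene of their arm, which ends at 1271759 on 4 and at 25255318 on 2R, and each is the last replicate 1 peak of its arm. At genes, the highest by this ranking was at cta, the gene of a G protein alpha subunit that drives cell shape change in gastrulation, with 140 and 145 fragments and a fold of 7.14 and 5.19. Tsp39D, a tetraspanin, had 111 and 119 fragments (fold 6.11 and 4.27). A region at the end of sgll, a pyridoxine oxidase gene, and of CG2993 had 103 and 128 fragments (fold 5.69 and 4.19). Inside genes, CG9799 had 123 and 206 fragments (fold 5.75 and 4.67), CG31038 had 109 and 153 (fold 4.43 and 5.22), and scrib, a scaffold of epithelial polarity, had 103 and 140 (fold 4.91 and 4.30). The scrib region was 1751 and 1128 bp wide and its summit lay 32048 bp from any gene end.

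Gene ends were reached by 135 of the 236 regions, that is 57.2% (95% exact binomial interval 50.6 to 63.6%), against 37.1% of the other shared peaks and 37.5% of all shared peaks. The intervals here cover the counting of peaks only, and peaks are not replicates of a condition, so no test was made. A gene end is a stretch of 500 bp on each side of either end of a protein-coding gene, since genes were used here without their strand. With replicate 2 intervals the figures were 57.6% against 36.9%. A wide interval reaches a gene end more easily, and the summits give a smaller difference. The summit lay at a gene end in 86 regions, or 36.4% (30.3 to 42.9%), against 31.4% of the other shared peaks and 31.5% of all shared peaks, and by replicate 2 summits in 37.7% against 31.0%. In replicate 2 the interval of this share ran from 31.5 to 44.2%.

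Intergenic and distant summits made up a smaller share of the wide regions. An intergenic summit was found in 19 regions, or 8.05% (4.92 to 12.3%), against 15.9% of the other shared peaks and 15.7% of all shared peaks, and by replicate 2 summits in 8.47% against 15.7%. More than 5 kb from any gene end lay 17.8% of the summits, against 28.3% of the others in replicate 1, and 16.9% against 28.1% in replicate 2. The widest margin the other way was at 501 to 1000 bp. Between 501 and 1000 bp lay 19.5% of their summits against 12.0% in replicate 1, and 18.6% against 12.6% in replicate 2. Within 250 bp of a gene end lay 19.1% of the summits of wide regions, against 18.1% of the others in replicate 1, and 23.7% against 17.2% in replicate 2, so the replicates differ here.

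**Figure D3:**
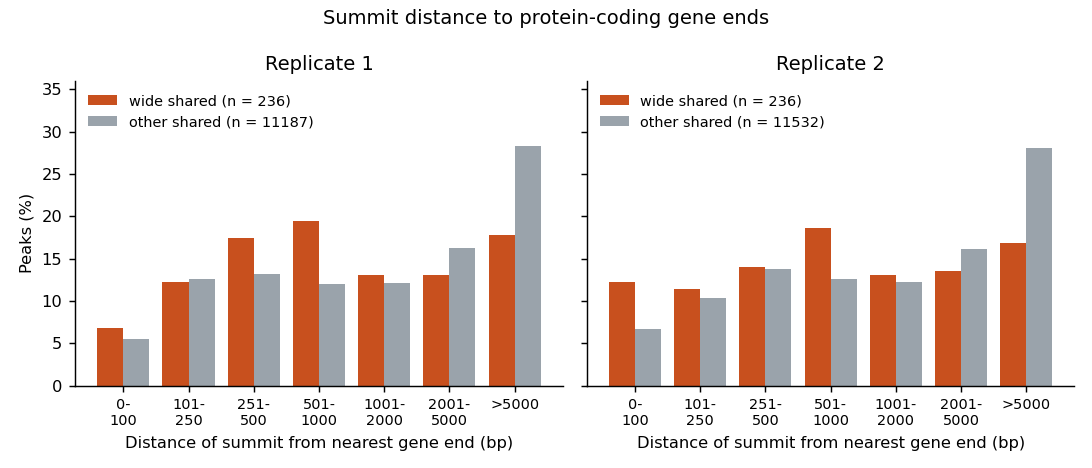
Share of peaks (%) by the distance of the summit from the nearest protein-coding gene end (bp) for wide shared peaks (orange) and other shared peaks (grey), in replicate 1 and replicate 2. Over 5000 bp the wide shared peaks stand at 17.8 and 16.9%, against 28.3 and 28.1% of the others, and from 501 to 1000 bp at 19.5 and 18.6%, against 12.0 and 12.6%.

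The same features changed step by step with width across all shared peaks. By the smaller width of the replicate pair, the share reaching a gene end was 32.0% under 200 bp, 36.8% from 200 bp, 44.1% from 400 bp, 51.9% from 600 bp and 57.2% from 800 bp in replicate 1. Intergenic summits made up 17.2, 16.2, 13.7, 10.6 and 8.05% in the same order, and the median fold was 2.29, 2.52, 2.80, 3.05 and 3.21. Replicate 2 gave the same order for these 3 measures. Summits at gene ends increased up to the class from 600 bp (38.8 and 38.7%) and stood at 36.4 and 37.7% from 800 bp. Within that last class, the 70 regions of at least 1000 bp had 47.1% of replicate 1 summits at a gene end. For the first 3 measures the step at 800 bp was no larger than the largest step at narrower widths, in either replicate.

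**Figure D4:**
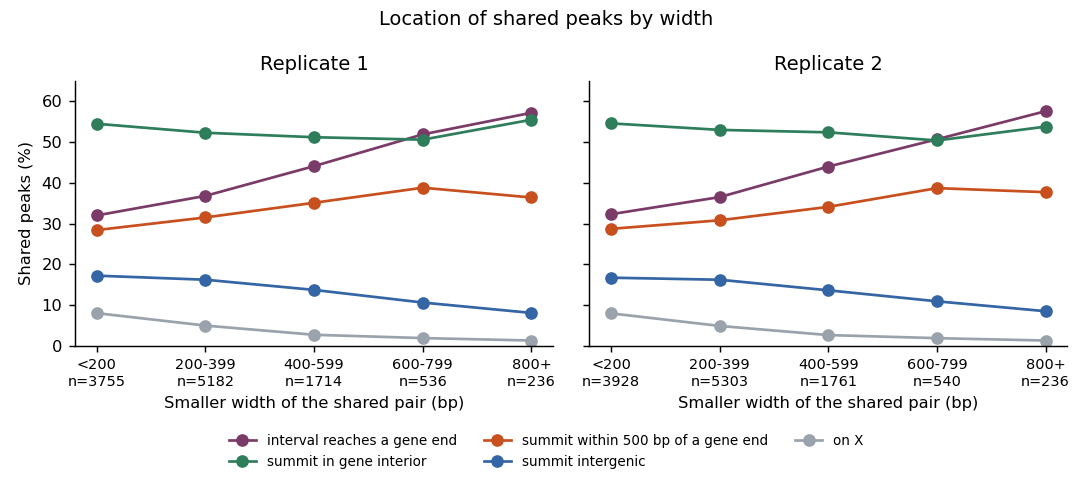
Share of shared peaks (%) in each location class and on X by the smaller width of the replicate pair (bp), for replicate 1 and replicate 2, with the number of peaks under each class. From the narrowest to the widest class, intervals reaching a gene end go from 32.0 to 57.2% in replicate 1, intergenic summits from 17.2 to 8.05% and X peaks from 7.99 to 1.27%.

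The end of at least 1 protein-coding gene was reached for 227 of 13922 genes (1.63%), and 322 genes (2.31%) held a wide region in their body or within 500 bp. These are called touched genes. For comparison, 47.5% of all protein-coding genes were touched by a shared peak of any width. The 227 genes with a reached end had a median length of 2.54 kb, near the 2.16 kb of protein-coding genes in general, and the 95 touched only in their interior were long, with a median of 21.5 kb. The share of genes touched was 1.40% below 2 kb and 9.12% from 50 kb, while the share with a reached end was 1.40 and 0.977%. A symbol of the CG series, given to genes without a name, belonged to 118 of the 322. The share of such symbols over all protein-coding genes was not computed, so this count sets nothing apart.

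Many wide regions joined neighbouring genes. Ends of 2 or more genes were reached by 75 regions (31.8%, against 18.0% of the other shared peaks) and of 3 or more by 16 (6.78% against 2.09%). A wider interval reaches more ends by its width alone, so this difference is partly built into the choice. Among peaks that reached any gene end, 75 of 135 wide regions and 2017 of 4146 other shared peaks reached 2 or more genes. The 3 most crowded, picked after their values were seen, reached 4 genes each, 1199 and 1085 bp at Ssb-c31a, CG8372, CG8360 and CG8353, 1296 and 862 bp at Obp57d, Cpr57A, CG13430 and BORCS7, and 814 and 1002 bp at Prosbeta5, Lsm10, RpS15Ab and CG12343. Prosbeta5 encodes a catalytic subunit of the proteasome, Lsm10 a protein of the histone RNA processing particle and Cpr57A a cuticle protein. By replicate 1 intervals only 1 region held a whole gene, Smug, of 1.044 kb, and it also reached Det and CG5292. It was 1130 bp wide in replicate 1, and its replicate 2 peak of 894 bp was shorter than the gene. Peaks of this kind cannot be assigned to a single gene from the intervals.

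The summit lay in a gene interior in 131 regions (55.5%), against 52.8% of the other shared peaks. By replicate 2 summits these shares were 53.8% and 53.3%, so they differed little. Inside genes and away from their ends by the whole interval lay 84 regions (35.6%), a share not computed for the other shared peaks. The ones furthest from any gene end were in dpy, the gene of a giant apical matrix protein that anchors the wing to the pupal cuticle, 43991 bp away, and in the glucose transporter gene Glut1, 34215 bp away. The dpy region, on 2L at 4533376 to 4534237, was 862 and 1060 bp wide with 71 and 92 fragments (fold 4.24 and 3.25), and its summits coincided. The Glut1 region, on 3L at 959185 to 960457, was 1273 and 1002 bp wide with 52 and 92 fragments (fold 3.55 and 2.96). Similar regions lay in Ten-m, a teneurin cell-surface protein (914 and 939 bp, fold 4.03 and 2.41), and in sima, the fly hypoxia-inducible factor (968 and 923 bp, fold 2.76 and 3.01).

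A wider interval touches a gene more easily, and the share without a touched gene was not computed for the other shared peaks. Of the wide regions, 17 (7.20%) touched no protein-coding gene. Besides those at the arm tips, the furthest from a gene end lay on 2L at 11400800 to 11401698, 27264 bp from salr, a zinc finger gene of wing vein patterning. It was 899 and 831 bp wide with 70 and 103 fragments and a fold of 3.06 and 2.83. A region on 3R at 31689081 to 31690929 was 1849 and 929 bp wide with 127 and 166 fragments (fold 4.38 and 4.47), 9587 bp from CG11550 and at the long non-coding RNA lncRNA:CR45565. Of the 17, 3 were at an annotated long non-coding RNA.

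Of the 230 neighbouring pairs along the arms, 8 were less than 10 kb apart, and the median gap was 257 kb. The 8 genes touched by 2 regions were Maf1, CG43366, Mekk1, Cpr73D, Obp73a, Eb1, bs and EcR, of which Cpr73D and Obp73a overlap and shared their regions. At Mekk1, the gene of a stress-activated kinase, regions of 1402 and 1280 bp and of 822 and 931 bp lay 4829 bp apart. At Eb1, which binds growing microtubule ends, regions of 975 and 947 bp and of 817 and 1250 bp lay 5919 bp apart, one beyond the upper-coordinate end and the other inside the gene near its lower-coordinate end.

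The EcR gene, which encodes the ecdysone receptor that times metamorphosis, is 81.2 kb long and held 18 peaks in replicate 1 and 26 in replicate 2. Its wide regions were on 2R at 6134269 to 6135141 (873 and 844 bp, 84 and 107 fragments, fold 3.12 and 2.51) and at 6168278 to 6169204, which covers the upper-coordinate end (927 and 818 bp, 95 and 100 fragments, fold 2.91 and 2.39). The bs gene, for the serum response factor that specifies intervein cells, is 33.6 kb long and held 10 and 12 peaks. Its wide regions were interior, at 24352306 to 24353197 (892 and 1528 bp, 63 and 85 fragments, fold 3.05 and 2.87) and 24361928 to 24362769 (842 and 1619 bp, 74 and 98 fragments, fold 2.44 and 2.58). Both overlapped the antisense RNA asRNA:bsAS or lay within 500 bp of it. In bs both regions were wider in replicate 2, whereas in EcR both were wider in replicate 1.

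**Figure D5:**
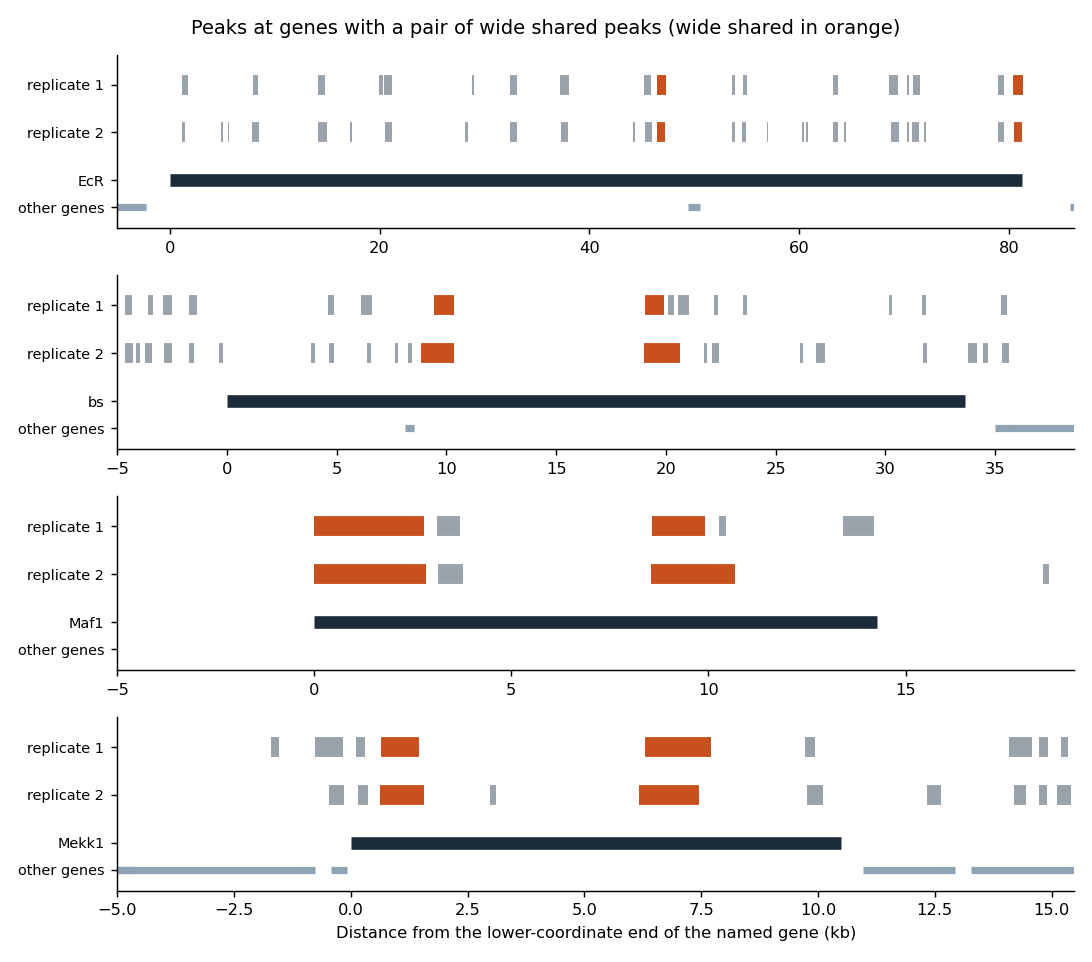
Peaks of replicate 1 and replicate 2 along EcR, bs, Maf1 and Mekk1, with wide shared peaks in orange, other peaks in grey, the named gene as a dark bar and other protein-coding genes as light bars. The horizontal axis is the distance (kb) from the lower-coordinate end of the named gene. EcR holds its 2 wide regions among 18 and 26 peaks, and Maf1 holds them among 5 and 3.

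Lists of genes were then read against the 2.31% of all protein-coding genes that were touched. Of 24 ecdysone response genes, 4 were touched, 3 of them at an end, while 23 had a shared peak of some width. Besides EcR these were Eip93F, the factor that directs late metamorphosis, with a region of 832 and 828 bp at its end (46 and 84 fragments, fold 2.89 and 2.72), and ftz-f1, a nuclear receptor of the response to ecdysone pulses, with an interior region of 908 and 839 bp (75 and 98 fragments, fold 2.89 and 3.52). The fourth was ImpE2, an ecdysone-inducible gene, in a region of 1633 and 895 bp that also reached CG42324 (fold 2.55 and 2.55). The median length of these genes was 24.0 kb, against 2.16 kb over all genes.

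Of 20 planar polarity and wing hair genes, 3 were touched and 18 had some shared peak. The touched ones were fz, the Frizzled receptor that orients wing hairs (1172 and 955 bp, 92 and 113 fragments, fold 3.23 and 2.63), stan, the cadherin that carries polarity between cells (856 and 813 bp, 86 and 101 fragments, fold 3.38 and 2.75), and mwh, which limits a cell to a single hair (1055 and 932 bp, 62 and 91 fragments, fold 4.19 and 3.27). All 3 regions were in the gene interior, and the one in mwh also reached the lysozyme gene LysP, which lies within mwh. The list had a median length of 17.4 kb.

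Of 20 pigmentation and tanning genes, 2 were touched and 13 had some shared peak. The region in y, which is needed for black melanin, lay on X at 359752 to 360668 and was 917 and 1438 bp wide, with 57 and 111 fragments and a fold of 2.72 and 3.28. Gene y is 4.737 kb long and lies inside the annotated span of CG32816, so that the region belongs to both by position. It was 1 of only 3 wide regions on X. The other touched gene was Dhpr, a pteridine reductase gene, in a region of 1292 and 902 bp that also reached bol and Use1 (58 and 83 fragments, fold 3.98 and 2.99).

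In each of the other lists 0, 1 or 2 genes were touched, too few to set a list apart from the 2.31% of all genes. The same limit applies to the 2 touched pigmentation and tanning genes. The ecdysone and polarity lists were not tested either, and their counts are small. Their genes are also long. Over all protein-coding genes, 3.28% from 5 to 20 kb, 4.96% from 20 to 50 kb and 9.12% from 50 kb were touched. Among 35 wing selector and patterning genes it was bs alone, although 33 had some shared peak, and among 21 epidermal and hair differentiation factors lola alone, with 20 having some shared peak. Of 19 apical matrix and chitin genes dpy was touched. None of 25 Notch and proneural genes, 18 integrin and adhesion genes or 16 growth genes was touched, with 9, 12 and 14 of them having some shared peak. Of 18 RNA-binding splicing regulators, which have a median length of 90.1 kb, sm (806 and 803 bp, fold 4.08 and 2.81) and Syp (1095 and 925 bp, fold 2.32 and 2.30) were touched. Of the 35 cytoplasmic ribosomal protein genes in the list RpS7 was touched, and 7 small nucleolar RNA genes lay in its replicate 1 peak or within 500 bp. RpS29 and RpS15Ab, which are not in the list and were picked after their values were seen, were also touched, both at an end.

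Marker lists of 9 other cell types and receptor families held 131 genes, of which 52 had a shared peak of some width and 1 was touched. Over all protein-coding genes, 47.5% had a shared peak and 2.31% were touched by a wide one. The 1 touched gene does not set these lists apart from that share. That gene was the muscle gene Zasp66, in a region of 1068 and 811 bp (50 and 102 fragments, fold 2.67 and 2.72) that reached an end of Cdc6, a replication factor gene lying within Zasp66. No gene of the hemocyte, neuron, glia, trachea, fat body, photoreceptor, germline and testis, or chemoreceptor lists was touched. This holds for list members only. Genes of such kinds outside the lists, picked after their values were seen, were touched. Among them were Obsc and Strn-Mlck for muscle, bol for testis, and Ir68a and ppk12 for receptors.

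Non-coding genes, named here after their values were seen, were touched as follows. Of 1959 long non-coding RNA genes 14 were touched (0.715%), and of 503 antisense RNA genes 10 (1.99%). Of 269 genes classed as small nucleolar RNA 7 were touched (2.60%), all at the RpS7 region. Of 54 genes classed as other non-coding RNA 1 was touched. It was snoRNA:Me28S-C993, by its name also a small nucleolar RNA, at a region in ect. Of 290 tRNA genes 1 was touched, and of 260 microRNA genes 1. The tRNA was tRNA:Arg-ACG-1-3 beside the end of EcR, and the microRNA was mir-4974, in a region of 886 and 854 bp at CG8671 (fold 2.69 and 2.04).

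By chromosome, 72 regions lay on 2R, 67 on 3R, 55 on 3L, 37 on 2L, 3 on X and 2 on 4. Arm 2R held 30.5% of the regions against 22.8% of the other shared peaks, and X held 1.27% (0.263 to 3.67%) against 5.47% of the other shared peaks and 5.38% of all shared peaks. The male wing has a single X, and X peaks had fewer fragments and were narrower in both lists, with a median of 41 and 58 fragments and of 232 and 212 bp. On 2L the medians were 51.5 and 72 fragments and 284 and 253 bp. The median fold differed little, at 2.41 and 2.06 on X and 2.47 and 2.08 on 2L. Of the X peaks 2.25% were 800 bp or wider in replicate 1 and 1.38% in replicate 2, against 5.53 and 2.60% on 2L, 2R, 3L and 3R. The part of the lower fragment number in the width of X peaks was not tested. The third X region, named after its values were seen, lay in Ndc80, a kinetochore gene, at 13610050 to 13611391, 1342 and 945 bp wide with 70 and 78 fragments. On 4, besides the region at the tip, 1 region of 1652 and 866 bp lay in Kif3C, a kinesin gene, and reached CG32017 (45 and 61 fragments, fold 3.10 and 2.20).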

How the data were processed

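H3K27ac CUT&RUN peaks of 2 biological replicates, 1 group, were analysed from 1 deposited narrowPeak list per replicate. The submitters' processing notes name Bowtie2 (an aligner), MACS2 (a peak caller) and the build dm6, without further detail. For versions, caller settings and a control library the entry is: not given in the sources used here. As deposited, the fold (a ratio to the caller's background), -log10 p, -log10 q and score are the authors' values for each peak and were used within a list only. Positions were made 1-based. Fragments and background at each summit were solved from the fold and -log10 p as a whole number and a Poisson mean, within 0.001 of log10 p, for all but 1 peak of each list. Total reads are unknown here, and fragments lack molecular identifiers. 

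Genes came from the RefSeq table of Release 6 (17684 genes on the arms, 13922 protein-coding), which was used without strand or exons. Of 390 list symbols, 6 were not matched and 4 were matched by synonym, giving 375 genes. Members and lists were chosen with earlier results of these data known. Named were the 15 widest, 10 highest and 8 most distant regions, 4 on each side of 800 bp, all on arm 4, genes with 2 regions and touched list members. Python 3.11.15, pandas 2.3.3 and scipy 1.17.1 were used, with matching and classing tested on simulated data. No test across regions was made.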

Additional observations from a re-analysis of the deposited data

Results flagged for a closer look

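Off the 6 arms, which the comparisons leave out, 1 further region met the same width rule. It lay on a scaffold assigned to Y, was 1596 bp wide in replicate 1 and 1627 bp in replicate 2, and its fold was 8.16 (120 fragments) and 9.31 (261 fragments). It stood out as a signal outside the regions compared. Replicate 2 held 2 more wide peaks off the arms, with no wide partner in replicate 1.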

How the results depend on the processing

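The values were recomputed under 13 other settings, giving 79 values, of which 62 stayed within 1.5 times the count, within the 95% interval of the share or within the spread between the replicates' median folds. The width minimum set the counts: at 600 bp there were 772 regions reaching ends of 688 genes, and at 1000 bp 70 regions, 73 genes and 47.1% of summits at a gene end. Without replicate 1 or without replicate 2 the rule used a single list, which gave 666 to 764 regions, 589 to 676 genes and 3.00 to 3.93% on X. Windows of 250 and 1000 bp gave 48.7 and 66.9% of intervals reaching a gene end (against 29.2 and 46.1% of the other shared peaks) and 19.1 and 55.9% of summits (against 18.1 and 43.4%). Summits in place of intervals gave 130 genes. Joining peaks of a list less than 200 bp apart, chosen after seeing the data, gave 382 regions and 376 genes, with 57.3% reaching a gene end and 0.785% on X. A reciprocal overlap of 50% (224 regions), a -log10 q of at least 5 (235), replicate 2 intervals (236), equal numbers of the widest 764 peaks (261) and all annotated genes moved no value beyond these bounds. No paired analysis was possible because there is 1 group. The part of depth in the widths was not tested, and neither list sets a level where no peak was called.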

Other observations

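Some touched genes that the rule for named genes did not take up have known parts in wing development or in every cell, and were picked after their values were seen. The knot gene kn, for a factor of the central intervein, held an interior region of 1280 and 941 bp (70 and 143 fragments, fold 3.59 and 4.08). The Wingless receptor gene fz2 held one of 1220 and 1087 bp (82 and 102 fragments, fold 2.92 and 2.58), the kinase gene nmo one of 846 and 916 bp (fold 2.76 and 2.62), and the matrix metalloprotease gene Mmp2 one of 985 and 937 bp (fold 3.19 and 2.41). The atypical cadherin gene kug had 812 and 901 bp (fold 3.28 and 2.24) and Tl, the Toll receptor gene, 1134 and 1181 bp (fold 3.01 and 2.16). All 6 regions were inside the gene and reached no gene end.

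Of a few touched genes that serve in every cell, picked in the same way, the following had an end reached. A region at Prosalpha2, a proteasome subunit, was 1770 and 1083 bp wide (96 and 121 fragments, fold 3.93 and 2.57). One at the translation elongation factor gene eEF2 was 969 and 915 bp wide (83 and 106 fragments, fold 3.53 and 2.74), and one at CCT3, a chaperonin subunit, 1242 and 943 bp (fold 3.03 and 2.55). Rab2 and Mob4 shared a region of 1143 and 1243 bp (75 and 115 fragments, fold 3.56 and 2.76). In Pgk, a gene of glycolysis, the region of 1067 and 1062 bp reached no end of the gene (129 and 184 fragments, fold 3.16 and 3.26).

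The lists also hold a separate sequence whose name carries that of line D2, with 6 peaks in replicate 1 and 7 in replicate 2. The widest there were 772 and 747 bp, short of the minimum.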
